A study of Monodelphis domestica with 2 samples.

Results

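IT_A_1 is a transcriptomic type of intratelencephalic (IT) glutamatergic neuron in V1, the primary visual area, of Monodelphis domestica (the gray short-tailed opossum). Its members were the nuclei that the deposited annotation placed in the type IT_A_1 and in the subclass IT_A. They numbered 3446 of 32764 labelled nuclei (10.5%) and 3446 of the 9864 nuclei of IT_A. Library 1A held 521 of them, library 1B 460, library 2A 974 and library 2B 1491. The rest of IT_A was divided into IT_A_2 with 2079 nuclei, IT_A_3 with 1763, IT_A_4 with 1594 and IT_A_5 with 982.

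The samples formed 1 group, the V1 of adult males with no treatment listed, with animal 1 aged 1.5 years and animal 2 aged 2 years. V1 of both hemispheres was pooled within an animal and frozen for about 1 year, and Draq5-stained nuclei were sorted and loaded on 2 wells per animal, so the libraries of each animal (1A with 1B, 2A with 2B) were technical repeats. The animal was the replicate (n = 2). Per the labels 2 experimenters processed the animals in parallel, and animal, age and experimenter cannot be told apart. Libraries held 7055 to 9664 labelled nuclei and 55625042 to 69706055 UMIs (unique molecular identifiers, 1 per captured RNA molecule). Any 2 libraries shared 13 to 26 labelled barcodes, and 0 or 1 of these was an IT_A_1 nucleus in both.

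IT neurons send axons to other cortical areas and to the striatum, within the cortex and across the midline, and form a major class of neocortical projection neurons. In the mouse they are divided by layer, and genes such as CUX2, which encodes a homeodomain transcription factor of upper-layer neurons, and RORB, a nuclear receptor of layer 4 neurons, label the layers. In the opossum the IT subclasses were drawn from unsupervised clusters and were not named after layers.

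The marker given for the type, CUX2, was present in every library. Its level was 524, 533, 599 and 559 CPM (UMI counts of the summed nuclei scaled to a common total, the usual CPM) in IT_A_1 of libraries 1A, 1B, 2A and 2B, the order used throughout, against a mean over IT_A_2 to IT_A_5 of 317, 331, 430.0 and 386 CPM. Each IT_A_1 library stood above the mean of the other types, and IT_A_1 had the highest CUX2 level of the 17 glutamatergic types in animal 1. In animal 2 IT_D was higher, at 679 CPM against 576 CPM. IT_A_4, at 438 and 561 CPM in animals 1 and 2, and IT_B, at 343 and 531 CPM, were close to IT_A_1 in animal 2 but below it in animal 1, at 528 CPM. IT_C_1 and IT_C_2 lay between 20.1 and 46.9 CPM. Among GABAergic interneurons Sst_1, Sst_2 and Sst_3 were at 570.5, 652 and 565 CPM in animal 1 and at 577, 677 and 620.3 CPM in animal 2, at or above IT_A_1. CUX2 was thus high in several other IT types and in these Sst types as well as in IT_A_1. In the fit described below, the difference from the mean of the other IT_A types did not pass the threshold (log2 fold change 0.65, SE 0.21, adjusted p = 0.0551 by edgeR). In the same fit, of the 4 single types the difference from IT_A_5 alone passed (log2 fold change 1.20, adjusted p = 0.0168). The difference from the mean passed with the animal as a block (adjusted p = 5.26e-07), with DESeq2 (0.0203), after thinning each nucleus to 3000 UMIs (0.0165), with the deposited labels (0.00768) and among nuclei of 5000 to 10000 UMIs (0.0186). It missed the threshold with the other types added up (adjusted p = 0.174, or 0.108 with DESeq2), with nuclei centred on the means of their animal (0.153), with doublets removed (0.0654), with equal nuclei per type and animal (0.0652) and with RLE size factors (0.0555). Over all alternatives run the adjusted p went from 3.27e-10 to 0.174, and the call thus depended on the setting.

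IT_A_1 took a different share of its subclass in each animal. It made up 23.7% of IT_A nuclei in library 1A (exact 95% binomial interval 21.9 to 25.5%), 21.9% in 1B (20.1 to 23.7%), 42.6% in 2A (40.5 to 44.6%) and 45.5% in 2B (43.8 to 47.3%). The libraries of animal 1 did not overlap with those of animal 2, and the mean over animals was 33.6% ± 15.2 (SD, n = 2). Of all glutamatergic nuclei, IT_A_1 was 10.8% in animal 1 and 22.3% in animal 2. Between libraries of the same animal the share differed at p = 0.167 in animal 1 and p = 0.0282 in animal 2 (Fisher's exact test, two-sided), or 0.434 and 0.282 after Benjamini-Hochberg adjustment over 10 such tests, of which 0 passed and 1 had an unadjusted p under 0.05. The share of IT_A_2 went from 27.99% in animal 1 to 15.7% in animal 2, that of IT_A_4 from 19.6% to 13.5% and that of IT_A_5 from 11.6% to 8.68%, while IT_A_3 stood at 18.0% and 17.8%. With 1 animal of each age, no test of this difference between animals was possible. Intervals cover counting error only.

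The nuclei of IT_A_1 were shallower than the rest of IT_A combined, most of all in animal 1. The median nucleus held 4168, 3979, 9154 and 7727 UMIs, against 8654, 8369.5, 10084 and 8254 in IT_A_2 to IT_A_5 combined. The ratio was 0.474 in animal 1 and 0.935 in animal 2 (mean 0.705 ± 0.326, SD, n = 2). Against single types this held in animal 1 for all 4, but in animal 2 the IT_A_1 median of 8384 UMIs lay above those of IT_A_3 (8239.5) and IT_A_5 (8094). Median genes detected were 2046 and 3054 against 3269 and 3263. Once every nucleus was thinned to 3000 UMIs (698 and 2323 IT_A_1 nuclei were deep enough), the numbers were 1657 and 1602 against 1660 and 1620, a ratio of 0.998 and 0.989, so at matched depth a nucleus of IT_A_1 held nearly as many genes as its neighbours. Doublet calls were few, 5 and 30 nuclei of IT_A_1, or 0.510% and 1.22%, against 1.48% and 2.68% of the other types.

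The share of IT_A_1 within IT_A differed between bands of depth. Among IT_A nuclei under 5000 UMIs, IT_A_1 made up 65.8% in animal 1 and 68.7% in animal 2. Among those of 5000 to 10000 UMIs it was 12.3% in animal 1 and 36.9% in animal 2, and among those of at least 10000 UMIs 9.06% in animal 1 and 43.8% in animal 2. The shallow nuclei were thus mostly IT_A_1 in both animals, and the animals differed in the deeper bands, where IT_A_1 took the larger share in animal 2. In animal 1 the share fell from each band to the next, while in animal 2 it was lowest in the middle band. The part of depth in the share of the type was not tested.

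**Figure D1:**
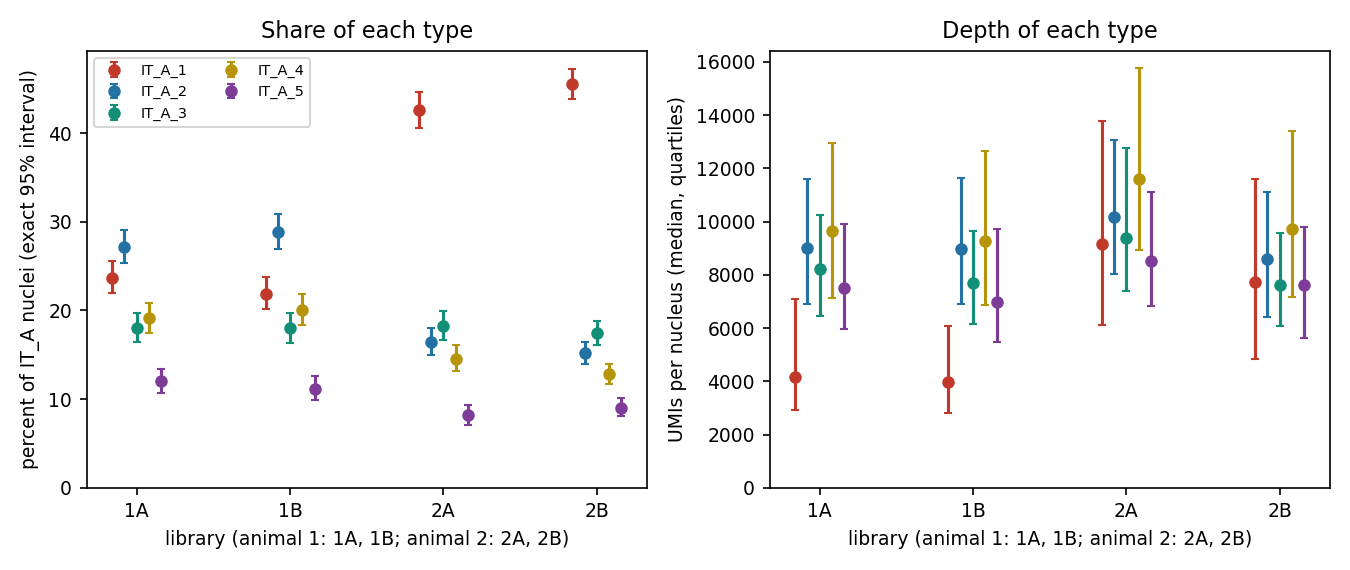
Left, percent of IT_A nuclei in each of the 5 types in each library, with exact 95% binomial intervals. Right, UMIs per nucleus by type and library, as medians with quartiles. IT_A_1 lies between 21.9% and 23.7% in the libraries of animal 1 and at 42.6% and 45.5% in those of animal 2, and its median depth is the lowest of the 5 types in 1A and 1B.

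To see how sharply IT_A_1 was set off from the rest of IT_A, nuclei of each animal were labelled from the other animal by their 15 nearest neighbours in 30 principal components. In animal 1, 913 of 981 IT_A_1 nuclei (93.1%, exact 95% interval 91.3 to 94.6%) received the label IT_A_1 again, and in animal 2 1775 of 2465 (72.0%, 70.2 to 73.8%). The other nuclei of animal 2 went to IT_A_2 (307), IT_A_3 (181), IT_A_4 (112) and IT_A_5 (90), and they were deeper, with a median of 11644 UMIs against 7152 in the nuclei that kept their label. When the nuclei to be labelled were first centred on their own means, the shares were 93.8% and 45.2%. These means weigh the types by their numbers in the animal, whereas training used at most 500 nuclei per type. The part of this mismatch in the shares was not tested. With all nuclei thinned to 3000 UMIs they were 91.1% and 87.6%. A smaller share of IT_A_1 nuclei was thus recovered in animal 2 than in animal 1 at full depth, and the 2 shares lay closer together at equal depth. Nuclei of other types that received the label IT_A_1 numbered 139 in animal 1 and 95 in animal 2 at full depth. After thinning they numbered 315 and 246, and the recovered share of IT_A_2 went from 78.3% and 88.8% to 64.9% and 78.5%. The recovered share of IT_A_1 alone therefore does not show how sharply the type was set off.

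By the profile of 3000 variable genes, IT_A_1 was closest to IT_A_2, IT_A_3 and IT_A_4. Its Spearman correlation across genes, as the mean over animals, was 0.915 with IT_A_3, 0.906 with IT_A_2 and 0.899 with IT_A_4. IT_C_1, a type of another subclass, followed at 0.865, ahead of IT_A_5 at 0.857 and IT_B at 0.847, and L6b was lowest at 0.596. IT_A_1 of the libraries of an animal correlated at 0.967 and 0.989, and across animals at 0.952 and 0.950. After thinning to 3000 UMIs the first 3 were IT_A_2 (0.868), IT_A_4 (0.865) and IT_A_3 (0.858), so the order among them was not fixed by these data. Nor was the place of IT_C_1, which stood above IT_A_5 after thinning (0.840 against 0.812) but below it with a smaller set of variable genes (0.780 against 0.821). In animal 2 of the 3000-gene profile it was at 0.868, below both IT_A_5 (0.870) and IT_B (0.876). Genes are not independent replicates, and profiles of 1 animal share their libraries, so these values are a description.

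The next question was which genes differ between IT_A_1 and the other IT_A types. The deposited types were drawn from clusters of these same counts, so comparing them directly is no test. Genes were therefore divided into 2 parts, each nucleus was labelled from the genes of 1 part and from the nuclei of the other animal, and the counts of the other part were summed by animal and label. The contrast set IT_A_1 against the equal-weight mean, on the log scale, of IT_A_2 to IT_A_5. Of 16863 genes tested, 3526 passed an adjusted p of 0.05 (20.9%), 1721 higher in IT_A_1 (10.2%) and 1805 lower (10.7%) by edgeR's quasi-likelihood test, and with the animal as a block 6878 did. The differences were unequal in size. The median log2 fold change was 0.57 among the genes called higher, of which 206 reached 2-fold, and -1.37 among those called lower, of which 1242 did. Taken within each animal, as differences in log2(CPM + 1) of these sums, 1720 of the 1721 and 1805 of the 1805 had the same sign in both animals. The calls rest on the same 2 animals, so this agreement is no separate check. Only 34.3% of the genes called lower had a symbol, against 62.2% of those called higher and 54.9% of all genes tested. Against the 4 single types, 171 genes were called higher and 393 lower in every pair. Adding the other 4 types up to 1 sum per animal, in place of the mean on the log scale, left 1033 calls, 317 higher and 716 lower. Below, log2 fold changes, SE and adjusted p come from this fit, while CPM values use the deposited labels and the arithmetic mean of the other types, and in 49 of the 3526 called genes (1.39%) the CPM went the other way in at least 1 animal.

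Among the 12 genes most raised in IT_A_1, several were shared with IT_A_2. KANK1, which encodes an adaptor of the actin cytoskeleton, was at 25.02, 18.6, 42.6 and 42.2 CPM in IT_A_1, against 16.8, 12.3, 17.5 and 19.99 CPM for the mean of the other types (log2 fold change 1.58, SE 0.26, adjusted p = 0.00437). IT_A_2 was higher still, at 43.8 and 54.2 CPM in animals 1 and 2, and the libraries of IT_A_1 overlapped with the mean of the other types, while IT_A_3, IT_A_4 and IT_A_5 lay between 1.49 and 10.8 CPM. PAMR1, a secreted protein, followed the same order, with 35.7, 35.6, 49.8 and 56.2 CPM in IT_A_1 (log2 fold change 1.50, SE 0.15, adjusted p = 9.11e-04) and 73.4 and 63.6 CPM in IT_A_2. In IT_A_5 it was at 6.22 and 8.35 CPM. ADRA1D, the alpha-1D adrenergic receptor that answers to noradrenaline, was at 31.4, 29.0, 38.4 and 34.7 CPM against 14.1, 13.7, 18.5 and 13.5 CPM (log2 fold change 1.49, SE 0.26, adjusted p = 0.00518), and every IT_A_1 library was above every mean. Of all genes tested, 35.3% had the 4 libraries of IT_A_1 apart from the 4 means of the other types, in either direction and with the deposited labels. NPSR1, the receptor of neuropeptide S, reached 43.0, 48.4, 33.2 and 29.2 CPM against 20.2, 27.0, 15.1 and 15.7 CPM (log2 fold change 1.48), and its libraries did not overlap either. It stood level with IT_A_2, at 50.3 and 30.1 CPM (log2 fold change 0.03, adjusted p = 0.959), and ADRA1D was not called against IT_A_2 (log2 fold change 0.32, adjusted p = 0.556). BAIAP3, a relative of the Munc13 priming factors, was at 128, 128, 96.5 and 93.2 CPM against 57.9, 58.6, 54.6 and 50.01 CPM (log2 fold change 1.27), and IT_A_2 again matched it at 120.1 and 103 CPM. TRPM3, a cation channel, was at 254, 266, 276 and 252 CPM against 138, 134, 95.9 and 101 CPM (log2 fold change 1.27), and PDZRN3, a ubiquitin ligase with PDZ domains, at 542, 604, 817 and 825 CPM against 321, 346, 409.5 and 428 CPM (log2 fold change 1.20). For both of these the difference was widest from IT_A_5, where PDZRN3 was at 54.3 and 68.4 CPM. PDZRN3 was called against IT_A_5 alone of the 4 types, and in IT_A_2 it was at 617 and 718 CPM (log2 fold change -0.03, adjusted p = 0.969).

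PLEC, PCNX3 and MATCAP2 were higher in IT_A_1 than in each of its 4 neighbours. PLEC, which encodes plectin, a linker of cytoskeletal filaments, was at 122, 118, 77.4 and 61.4 CPM in IT_A_1 against 35.8, 37.9, 48.6 and 39.5 CPM (log2 fold change 1.22, SE 0.14, adjusted p = 0.00139). PCNX3, a membrane protein of the pecanex family, was at 32.7, 42.6, 25.02 and 23.3 CPM against 13.0, 12.8, 14.7 and 14.2 CPM (log2 fold change 1.21, SE 0.12, adjusted p = 7.53e-04), and MATCAP2, a putative tubulin carboxypeptidase, at 75.4, 81.1, 43.1 and 33.7 CPM against 26.0, 28.7, 27.97 and 21.4 CPM (log2 fold change 1.18, SE 0.13, adjusted p = 0.00115). These 3 genes were called higher in every pair, their libraries did not overlap with the mean of the other types, and their levels were higher in animal 1, whose IT_A_1 nuclei were the shallower ones. HR, a transcriptional corepressor named hairless, was at 58.7, 51.3, 38.5 and 43.7 CPM against 22.1, 23.3, 22.6 and 21.1 CPM (log2 fold change 1.18). It was not called against IT_A_4 (log2 fold change 0.29, adjusted p = 0.383), and in animal 2 these types were at 41.4 and 40.0 CPM. WNT9A, a Wnt ligand, was at 27.7, 28.1, 29.3 and 30.3 CPM against 15.4, 17.6, 17.4 and 17.0 CPM (log2 fold change 1.18), but it was higher still in IT_A_3, at 41.9 and 50.2 CPM.

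The 12 genes most reduced in IT_A_1 were, with 1 exception, lower in CPM than in each neighbour in both animals. Not all of them were called in each pair: BCO1, CEL and TIMP4 were called lower against 2 of the 4 neighbours and FZD8 against 3. TMEM204, a membrane protein, was at 5.34, 5.38, 9.46 and 9.33 CPM against 51.7, 51.9, 38.8 and 37.7 CPM (log2 fold change -2.37, SE 0.28, adjusted p = 0.00160), and the values of IT_A_2 to IT_A_5 ranged from 23.0 to 63.2 CPM by animal. LIPT1, a mitochondrial lipoyltransferase, was at 6.67, 3.72, 6.50 and 5.58 CPM against 36.4, 38.2, 31.9 and 31.2 CPM (log2 fold change -2.29, SE 0.23, adjusted p = 9.11e-04). MPPE1, a phosphoesterase that remodels GPI anchors, was at 23.0, 26.1, 33.9 and 33.7 CPM against 144, 142, 134 and 122 CPM (log2 fold change -2.06, SE 0.18, adjusted p = 5.07e-04). In each of these the highest IT_A_1 library lay below the lowest mean. BCO1, the enzyme that cleaves beta-carotene, was at 11.7, 13.7, 9.46 and 8.57 CPM against 80.5, 85.0, 48.2 and 37.9 CPM (log2 fold change -2.21), and CHCT1 at 6.67, 8.27, 11.9 and 10.3 CPM against 50.3, 46.9, 38.0 and 35.1 CPM (log2 fold change -2.11). FZD8, a Wnt receptor, was at 8.68, 6.21, 9.16 and 7.96 CPM against 40.6, 45.4, 28.04 and 24.1 CPM (log2 fold change -1.78). The log2 fold changes of BTBD6, ANGPTL2, CEL and TIMP4 were -1.83, -1.82, -1.73 and -1.59, and their IT_A_1 libraries held 4.96 to 10.3 CPM. The exception was ADAMTS2, a procollagen peptidase, at 26.4, 12.0, 13.0 and 12.5 CPM against 120.4, 119, 104 and 106 CPM (log2 fold change -1.59). It was low relative to IT_A_4 (log2 fold change -3.90) and IT_A_5 (log2 fold change -3.26), whereas IT_A_2 and IT_A_3 were at 12.5 and 22.4 and 13.3 and 9.75 CPM in animals 1 and 2. Genes without a symbol reached further. ENSMODG00000043696 was higher by 1.77 and ENSMODG00000045514 by 1.62 on the log2 scale, and ENSMODG00000040475 and ENSMODG00000041110 had log2 fold changes of -2.80 and -2.66.

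The direction of these 24 genes was checked at matched depth, in nuclei under 5000 UMIs, of 5000 to 10000 UMIs and of at least 10000 UMIs, with the deposited labels. The 12 reduced genes were lower in IT_A_1 in both animals in all 3 bands. The 12 raised genes were higher in both animals in the lowest band, and 11 of 12 in each of the others, the exceptions being NPSR1 in the middle band and PAMR1 in the upper band, both in animal 1. The size of the gap varied with the band. In animal 2 PLEC was at 130 CPM against 52.8 CPM in the lowest band and 53.9 against 47.0 CPM in the upper band. TMEM204 in animal 1 was at 0 against 77.8 CPM and at 13.1 against 41.1 CPM in these bands. WNT9A in animal 1 went the other way, at 21.6 against 18.5 CPM and 39.2 against 15.3 CPM. The same nuclei served to choose the genes, so the values by band are a description. With the other types added up to 1 sum per animal, KANK1, PAMR1, ADRA1D, NPSR1, PDZRN3 and WNT9A of the raised genes and BCO1, FZD8 and TIMP4 of the reduced genes no longer passed, and each of them kept its direction. The log2 fold changes of these raised genes shrank to between 0.42 (KANK1) and 1.06 (ADRA1D). Those of BCO1, FZD8 and TIMP4 were -2.20, -1.76 and -1.70, near the main fit. With nuclei centred on the means of their animal before labelling, PDZRN3 of the raised genes (adjusted p = 0.0875) and 5 of the 12 reduced genes, among them BCO1, FZD8, CEL and TIMP4 (adjusted p = 0.0598 to 0.107), no longer passed, and with equal nuclei per type and animal TIMP4 did not (adjusted p = 0.0502).

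**Figure D2:**
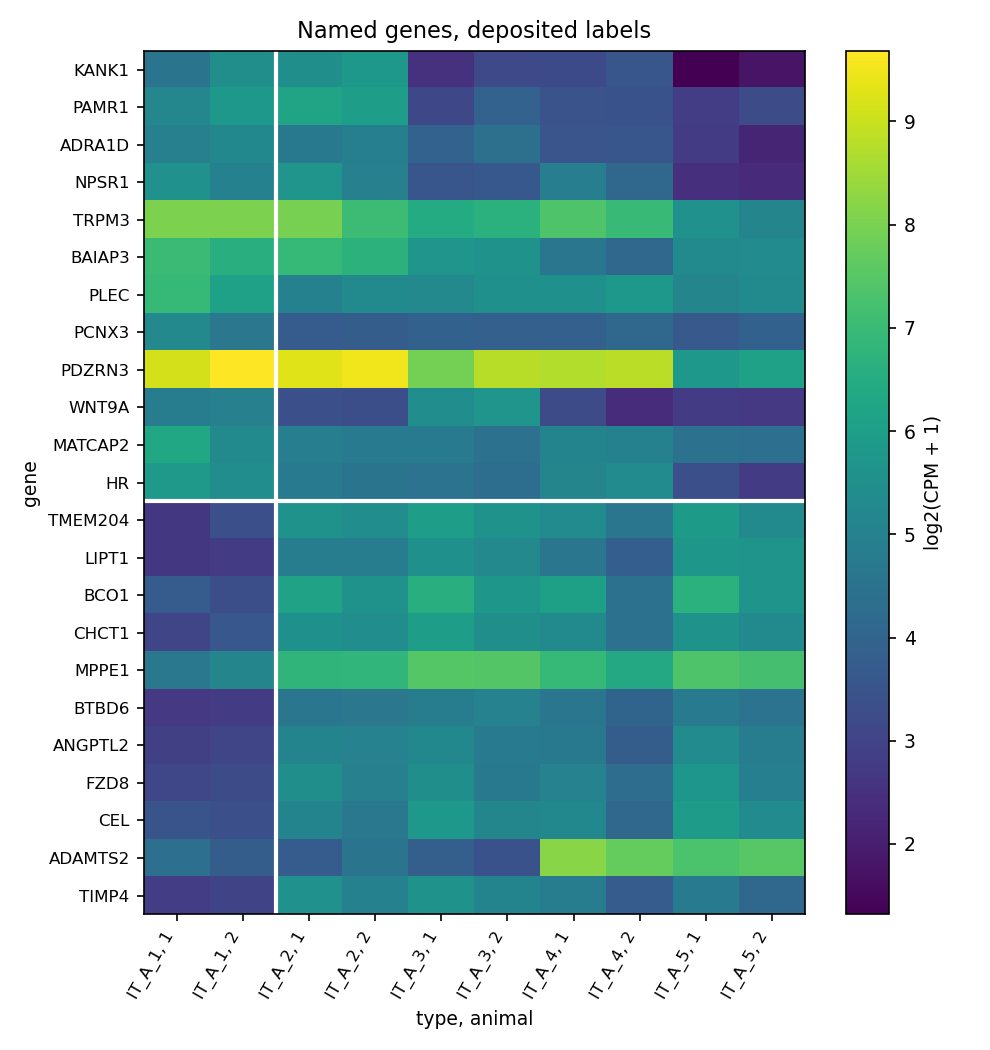
Level of the 12 genes most raised (above the white line) and of 11 of the 12 most reduced (below it) in IT_A_1, as log2(CPM + 1) by type and animal with the deposited labels. KANK1 and PAMR1 are bright in IT_A_1 and IT_A_2, and TMEM204, LIPT1 and MPPE1 are darker in both IT_A_1 columns than in the other columns.

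Single neighbours differed from IT_A_1 in their own genes. IT_A_1 against IT_A_2 gave 2516 calls of 16863 genes tested, or 14.9%, with 6.66% higher and 8.26% lower in IT_A_1, and 6089 with the animal as a block. Against IT_A_3 there were 3314, or 19.7%, with 8.46% higher and 11.2% lower in IT_A_1, and 6835 with the block. Against IT_A_4 there were 1704, or 10.1%, with 4.22% higher and 5.88% lower in IT_A_1, and 5136 with the block. Against IT_A_5 there were 3558, or 21.1%, with 10.2% higher and 10.9% lower in IT_A_1, and 6599 with the block. RORB separated IT_A_1 from IT_A_3: it was at 86.8, 62.9, 127 and 153 CPM in the IT_A_1 libraries and at 15.3 and 31.8 CPM in IT_A_3 of animals 1 and 2 (log2 fold change 2.29, SE 0.23, adjusted p = 8.11e-04). In IT_A_2 it was higher than in IT_A_1, at 178 and 203 CPM (log2 fold change -1.10). OTOF, the calcium sensor otoferlin, had the opposite order, with 27.7, 26.1, 45.8 and 50.4 CPM in IT_A_1, 4.23 and 5.94 CPM in IT_A_2 (log2 fold change 2.85, SE 0.72, adjusted p = 0.0287) and 57.4 and 75.5 CPM in IT_A_3. RORB in IT_A_1 thus lay between IT_A_2 and IT_A_3, whereas the difference in OTOF between IT_A_1 and IT_A_3 was not called (log2 fold change -0.70, adjusted p = 0.455). RXRG, a retinoid X receptor, was at 13.3, 9.10, 17.6 and 14.9 CPM in IT_A_1 and 79.5 and 101 CPM in IT_A_2 (log2 fold change -2.63, SE 0.21, adjusted p = 5.05e-04), and PDGFD, a growth factor, was higher in IT_A_1 than in IT_A_2 by 2.83 on the log2 scale, with 47.4, 52.5, 91.5 and 84.3 CPM against 5.09 and 6.63 CPM. RGS6, a regulator of G-protein signaling, also separated these types, at 116, 103, 86.5 and 89.0 CPM in IT_A_1 and 31.8 and 20.3 CPM in IT_A_2 (log2 fold change 1.96).

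IT_A_4 and IT_A_5 each carried genes that IT_A_1 nearly lacked. PLCXD3, a protein with a phospholipase C domain, was at 169 and 202 CPM in IT_A_4 and at 3.67, 4.55, 3.55 and 3.60 CPM in IT_A_1 (log2 fold change -5.50, SE 0.39, adjusted p = 1.71e-04), MCHR2, a receptor of melanin-concentrating hormone, at 47.7 and 22.9 CPM against 1.33, 0, 0.394 and 0.229 CPM (log2 fold change -5.82), and DCBLD1 at 27.7 and 21.6 CPM against 1.00, 0, 0.493 and 1.07 CPM (log2 fold change -4.82). In IT_A_5, KYNU, the enzyme kynureninase, was at 61.5 and 40.3 CPM against 1.00, 2.07, 2.07 and 2.52 CPM in IT_A_1 (log2 fold change -4.43, SE 0.33, adjusted p = 1.33e-04), with HGF, hepatocyte growth factor, at 24.9 and 21.7 CPM against 3.00, 2.07, 1.28 and 1.53 CPM (log2 fold change -3.82). The adhesion protein gene KIRREL1 was at 28.6 and 24.8 CPM in IT_A_5 and 2.34, 1.65, 2.46 and 1.76 CPM in IT_A_1 (log2 fold change -3.39). In the other direction, ADGRG2, an adhesion G-protein-coupled receptor, was at 155, 134, 146 and 116 CPM in IT_A_1 and 7.93 and 8.25 CPM in IT_A_4 (log2 fold change 3.98, SE 0.24, adjusted p = 7.17e-05), and GFRA2, the receptor of neurturin, at 38.7, 36.0, 30.8 and 36.7 CPM in IT_A_1 and 1.24 and 2.62 CPM in IT_A_5 (log2 fold change 4.11, SE 0.37, adjusted p = 2.89e-04). MOXD1, a monooxygenase, was higher in IT_A_1 than in IT_A_4 by 2.35 on the log2 scale. TEX47 in IT_A_2 (log2 fold change -3.11) and PRL, which encodes prolactin, in IT_A_3 (log2 fold change -2.59) were higher than in IT_A_1.

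Of 618 genes in 27 lists by function or cell type, the identity genes come first. The counts carry no test of a list, and beside them stand the shares over all genes tested: 10.2% higher and 10.7% lower, or 21.4% and 19.4% with the animal as a block and 7.13% and 8.03% with DESeq2. Among genes of glutamatergic identity, 1 of 7 members tested was called higher and 0 lower, or 2 and 0 with the animal as a block, with a median log2 fold change of -0.06 against 0.0065 over all genes tested. The called member was NEUROD6, a transcription factor of cortical projection neurons, at 22.0, 26.5, 21.2 and 21.4 CPM in IT_A_1 against 16.8, 17.2, 18.1 and 16.8 CPM. For genes that label upper layers in the mouse, 1 of 10 members tested was called higher and 4 lower, or 5 and 4 with the animal as a block and 2 and 2 with DESeq2, although the median was 0.24. CUX1, a paralog of CUX2, was higher in IT_A_1 than in each neighbour, at 311, 323, 217 and 205 CPM against 128, 142, 137 and 126 CPM (log2 fold change 1.01, SE 0.09, adjusted p = 5.76e-04), while ADAMTS2, WFS1, LAMP5 and RFX3 were called lower. WFS1, an endoplasmic reticulum protein, was at 10.3, 4.96, 6.40 and 5.66 CPM against 17.0, 22.3, 23.0 and 26.2 CPM (log2 fold change -1.14). The upper-layer genes of the mouse were therefore not raised together in IT_A_1.

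Genes that label layer 4 in the mouse were the list with the largest share called higher among those with at least 4 members tested: 3 of 4 members tested were called higher and 0 lower (median 0.70). THSD7A, a membrane protein with thrombospondin repeats, was at 295, 323, 242 and 230.2 CPM in IT_A_1 against 143, 142, 135 and 130.2 CPM (log2 fold change 1.05, SE 0.11, adjusted p = 9.21e-04), and no IT_A_1 library overlapped with a mean. UNC5D, a netrin receptor, was at 1220.2, 1342, 1359.6 and 1393 CPM against 1088, 1055, 1068 and 1117 CPM (log2 fold change 0.52, SE 0.10, adjusted p = 0.00831), below IT_A_4 at 1976 and 2342 CPM. RORB was called higher against the log-scale mean (log2 fold change 0.87, SE 0.16, adjusted p = 0.00701) and in IT_A_5 it was at 17.2 and 15.02 CPM, yet its libraries overlapped with the arithmetic mean of the other types, 88.5, 84.3, 96.3 and 102 CPM, and with the other types added up the sign turned (log2 fold change -0.20). WHRN, the other member, was not called (log2 fold change -0.13). Of deep-layer IT genes 0 of 6 members tested were called by edgeR or DESeq2, 1 had an unadjusted p under 0.05 and 1 was called higher with the animal as a block, and of genes that mark other projection neurons 1 of 9 members tested was called higher and 1 lower, or 0 and 1 with DESeq2. The lower one was BCL11B, the transcription factor of corticospinal neurons also known as CTIP2, at 33.7, 30.6, 35.0 and 37.4 CPM against 144, 139.6, 144 and 146 CPM (log2 fold change -0.94). The fitted difference of BCL11B, on the log-scale mean, was smaller than the gap in CPM against the arithmetic mean. SYT6 was the higher one, at 3.34, 2.48, 3.94 and 2.68 CPM against 1.84, 2.28, 1.53 and 1.68 CPM (log2 fold change 1.10).

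Transcription factors and receptors moved in both directions. Of transcription factors 9 of 46 members tested were called higher and 5 lower, or 18 and 10 with the animal as a block (median 0.10). SATB1, a chromatin organizer, was higher (log2 fold change 0.94), at 34.0, 36.0, 44.2 and 46.3 CPM against 26.5, 21.8, 25.4 and 26.3 CPM, as were TSHZ3, NFIX, NR2F1, LMO4, POU3F3 and ZBTB18 with log2 fold changes of 0.28 to 0.65. FOXO1 (log2 fold change -1.49) and BHLHE22 (log2 fold change -0.96) were lower, both at low levels of 1.33, 3.31, 1.77 and 3.06 CPM and 3.67, 2.07, 2.36 and 2.22 CPM. Among glutamate receptors 4 of 20 members tested were called higher and 2 lower, or 8 and 3 with the animal as a block. GRIA3, an AMPA receptor subunit, was at 508, 525, 489 and 444 CPM against 367, 363, 403 and 393 CPM (log2 fold change 0.51), and GRIK1, a kainate receptor subunit, at 1.67, 1.24, 1.38 and 1.38 CPM against 4.68, 3.66, 2.28 and 3.74 CPM (log2 fold change -1.23). GRM3, a metabotropic receptor, was called higher (log2 fold change 0.91) but differed between animals, at 253, 226, 487 and 489 CPM. GRM4 had a log2 fold change of 0.55, although its CPM in IT_A_1, 29.0, 26.5, 31.3 and 27.6, lay below the arithmetic mean of the other types, 33.5, 35.0, 41.2 and 45.6, so its direction rests on the log-scale mean. Of GABA and glycine receptors 1 of 14 members tested was called higher and 0 lower, or 5 and 0 with the animal as a block and 0 and 0 with DESeq2. The called one was GABBR1, a subunit of the GABA-B receptor, at 58.4, 56.7, 54.4 and 55.3 CPM against 40.9, 42.6, 42.0 and 42.8 CPM (log2 fold change 0.40).

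Of receptors of neuromodulators and peptides 4 of 38 members tested were called higher (10.5%) and 2 lower (5.26%), or 10 and 7 with the animal as a block, and the median was 0.08. The share called higher was close to the 10.2% over all genes tested. CHRM3, a muscarinic acetylcholine receptor, was at 27.7, 30.6, 16.7 and 18.6 CPM against 15.7, 15.2, 12.1 and 16.2 CPM (log2 fold change 0.74). In animal 2 IT_A_5 was above it, at 19.6 against 17.8 CPM. CHRM1, another muscarinic receptor, was higher by a log2 fold change of 0.73. HRH1, a histamine receptor, was at 17.7, 18.6, 16.9 and 14.3 CPM against 8.08, 10.9, 8.22 and 10.1 CPM (log2 fold change 0.92). HCRTR2, an orexin receptor, was at 55.4, 57.9, 121 and 119 CPM against 58.4, 55.5, 64.7 and 67.0 CPM (log2 fold change 0.98), and its excess was in animal 2. NPY1R, a receptor of neuropeptide Y, was lower (log2 fold change -1.51), at 2.67, 0.827, 1.77 and 2.07 CPM against 7.17, 6.22, 4.23 and 4.21 CPM, and CHRNB2, a nicotinic receptor subunit, was lower as well (log2 fold change -0.60).

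Of potassium channels and their subunits 6 of 33 members tested were called higher (18.2%) and 1 lower (3.03%), or 16 (48.5%) and 3 (9.09%) with the animal as a block (median 0.16). Of sodium, calcium and other cation channels 6 of 29 members tested were called higher (20.7%) and 1 lower (3.45%), or 16 (55.2%) and 2 (6.90%) with the animal as a block (median 0.19). Over all genes tested the shares were 10.2% and 10.7%, or 21.4% and 19.4% with the block. KCNH5, a voltage-gated channel of the ether-a-go-go family, was at 363, 394, 341 and 359 CPM against 257, 257, 243 and 243 CPM (log2 fold change 0.72) and KCNH1 at 1191, 1295, 1281 and 1294 CPM against 1020, 1015, 912 and 913 CPM (log2 fold change 0.62), and neither overlapped. KCNIP3, a calcium-binding channel partner, was at 1006, 998, 796 and 816 CPM against 678, 661, 627 and 628 CPM (log2 fold change 0.59). SCN1A, a sodium channel, was at 539, 641, 546 and 592 CPM against 402, 416, 437 and 459.9 CPM (log2 fold change 0.46). ITPR1 and ITPR2, which encode calcium release channels of the endoplasmic reticulum, went opposite ways: ITPR1 was at 1219.5, 1402, 1311 and 1318 CPM against 826, 834, 789.8 and 808 CPM (log2 fold change 0.69) and ITPR2 at 4.34, 4.55, 4.24 and 5.81 CPM against 17.9, 18.5, 13.2 and 11.4 CPM (log2 fold change -1.51). KCNA3 (log2 fold change 0.71) and CACNA1H (log2 fold change 0.60) were called higher with libraries that overlapped with the mean of the others, and with the other types added up CACNA1H was at -0.45.

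Genes of cell contact were called in both directions as well. Of cadherins and protocadherins 4 of 22 members tested were called higher and 3 lower. CDH9 was at 51.7, 39.3, 24.9 and 26.8 CPM against 132, 123, 123 and 120.4 CPM (log2 fold change -1.28) and CDH13 at 226, 234, 193 and 201 CPM against 479.7, 493, 435 and 454 CPM (log2 fold change -0.83), whereas CDH12 was at 868, 978, 805 and 856 CPM against 685, 655, 553 and 575 CPM (log2 fold change 0.62). Of axon guidance genes 10 of 40 members tested were called higher and 6 lower, or 17 and 8 with the animal as a block (median 0.17). EPHB6, a member of the ephrin receptor family, was higher, at 33.7, 26.9, 24.2 and 23.9 CPM against 15.8, 16.6, 19.2 and 18.2 CPM (log2 fold change 0.77), along with SLIT2, ROBO1, SEMA3A, PLXNA1 and EFNA5 (log2 fold changes of 0.64 to 0.69). NRP2, a semaphorin receptor, was lower, at 7.01, 1.65, 2.07 and 2.91 CPM against 14.9, 12.7, 14.9 and 15.2 CPM (log2 fold change -0.73), as were SEMA3C (log2 fold change -1.27) and EPHA5 (log2 fold change -0.63). For NRP2 too the fitted difference, on the log-scale mean, was smaller than the gap in CPM against the arithmetic mean. NTN4 was called higher (log2 fold change 1.12) from 4.00, 1.65, 2.76 and 1.99 CPM, with overlapping libraries. Of synaptic adhesion genes 9 of 40 members tested were called higher and 4 lower, or 17 and 7 with the animal as a block, with SLITRK3 higher (log2 fold change 0.67) and TENM1 (log2 fold change -0.97), CADM3 (log2 fold change -0.50) and LRRTM1 (log2 fold change -0.62) lower. Of genes of synaptic vesicle release 4 of 31 members tested were called higher and 3 lower, or 11 and 3 with the animal as a block and 2 and 1 with DESeq2. SYT17, a synaptotagmin, was at 41.0, 24.8, 25.02 and 23.3 CPM against 61.6, 60.6, 55.3 and 58.3 CPM (log2 fold change -0.88), VAMP2 was lower (log2 fold change -0.45) and SV2A and DOC2A were higher, with log2 fold changes of 0.43 and 0.58.

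Of ribosomal protein genes 2 of 15 members tested were called higher and 4 lower (median -0.18), or 40% in either direction against 20.9% over all genes tested. RPS14 and RPS23 were among the lower and RPL4 and RPL13 were the higher ones, and with DESeq2 the counts were 1 and 2. Of activity-regulated genes 1 of 17 members tested was called higher and 1 lower, or 3 and 3 with the animal as a block and 0 and 0 with DESeq2. FOSL2 was higher (log2 fold change 0.50), at 24.4, 24.8, 20.5 and 18.7 CPM against 16.0, 15.1, 17.3 and 17.7 CPM, and EGR4 lower (log2 fold change -0.64), and FOS, at 1.67, 0.414, 0.887 and 1.99 CPM against 3.62, 1.88, 3.23 and 4.67 CPM, was not called. Of 17 neuropeptides and secreted organizers 0 passed by edgeR or DESeq2, 3 had an unadjusted p under 0.05, and 2 were called higher and 4 lower with the animal as a block. Among them was PDGFD, with a log2 fold change of 1.25 and an adjusted p of 0.101. Of genes of matrix and its sulfation 0 of 22 members tested were called higher and 1 lower, or 3 and 3 with the animal as a block and 0 and 0 with DESeq2. SULF2, an extracellular sulfatase, was lower (log2 fold change -0.48). Of oxidative phosphorylation genes 1 of 20 members tested was called higher and 3 lower, or 2 and 7 with the animal as a block and 1 and 1 with DESeq2 (median -0.22), with UQCRB, a subunit of complex III, at 16.7, 18.6, 18.8 and 24.2 CPM against 28.1, 29.2, 34.6 and 30.5 CPM (log2 fold change -0.62). Of heat shock genes 1 of 8 members tested was called higher and 0 lower, or 3 and 1 with the animal as a block, the call being HSPH1 (log2 fold change 0.32), and with DESeq2 HSPA8 was called lower in its place. With DESeq2, of the list members named so far LAMP5, RFX3, SYT6, ZBTB18, CACNA1H, GRIK1, GABBR1, CHRM1, NRP2, NTN4, LRRTM1, VAMP2, FOSL2, EGR4, SULF2, RPL13, RPS14 and HSPH1 no longer passed (adjusted p = 0.0641 to 0.198), and each kept its direction.

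**Figure D3:**
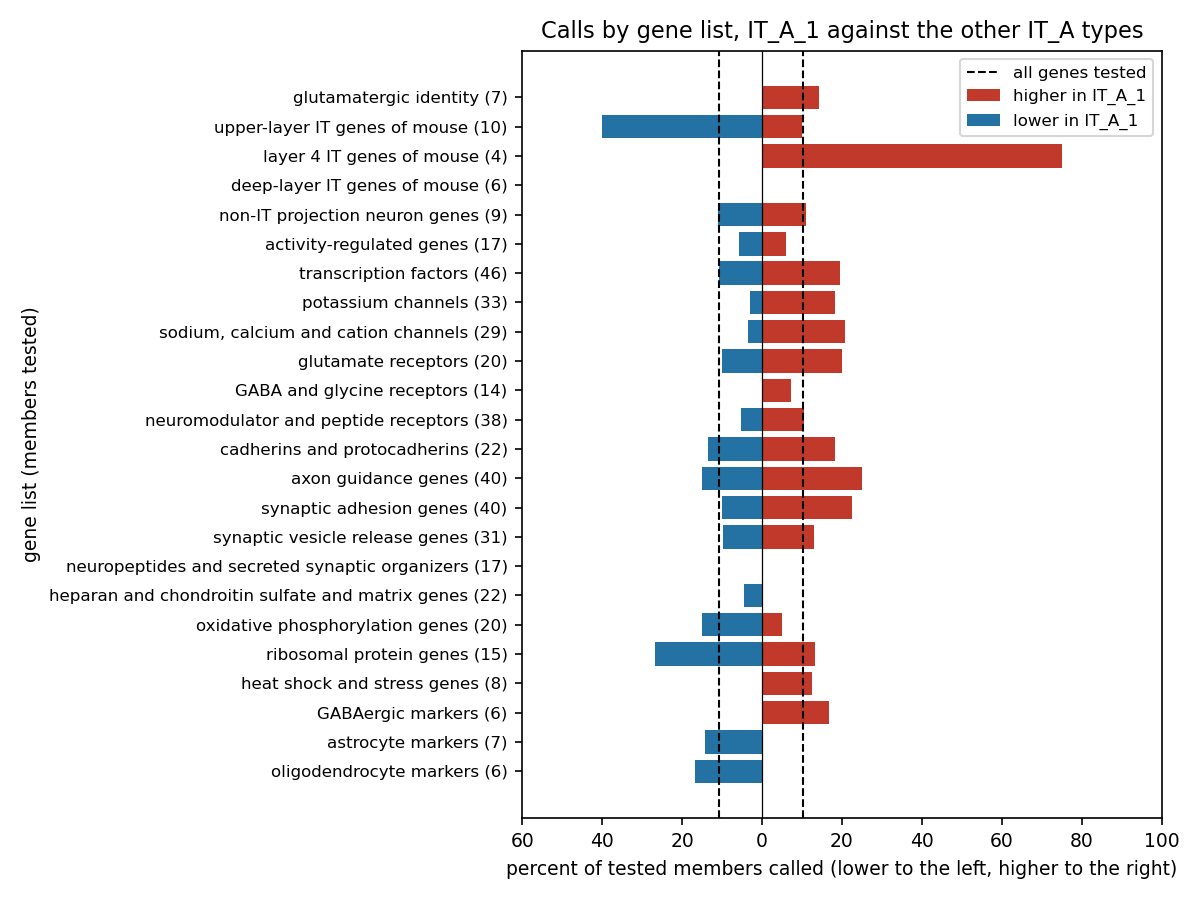
Percent of tested members of each list called higher (right) or lower (left) in IT_A_1 against the other IT_A types, with the number tested in parentheses, for lists with at least 4 members tested. Dashed lines mark the percentages over all genes tested, 10.2% higher and 10.7% lower, and the layer 4 list reaches 75% higher with 3 of 4 members.

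Markers of other cells were rare in IT_A_1. The summed level of 9 GABAergic markers was 22.5 to 28.5 CPM over the 4 libraries, against 11.9 to 45.0 CPM over the libraries of the other IT_A types and 1790.4 and 1773 CPM in GABAergic nuclei of animals 1 and 2. For microglia it was 0.414 to 3.00 CPM against 1.36 to 3.93 CPM (own cells 2027 and 2186), for oligodendrocyte precursors 0.841 to 4.00 CPM against 0.561 to 4.14 CPM (own cells 1021 and 1024), for oligodendrocytes 74.5 to 97.8 CPM against 83.9 to 146 CPM (own cells 15796 and 16108) and for astrocytes 183 to 226 CPM against 122 to 309 CPM (own cells 22123 and 20949.6). For all 5 lists the range of IT_A_1 overlapped with that of the other types. OLIG2 and GPR17 of the precursor list and CLDN5 and CDH5 of the endothelial list were at 0 in all 4 IT_A_1 libraries. Endothelial markers were lower in IT_A_1 than in each other type, 5.34, 2.90, 8.37 and 9.64 CPM by library against 11.8 to 41.4 CPM, and FLT1, a VEGF receptor, made up most of the sum. FLT1 was at 4.67, 2.48, 8.08 and 9.56 CPM in IT_A_1 against 17.3, 16.7, 31.2 and 31.7 CPM (log2 fold change -1.90, SE 0.36, adjusted p = 0.00735). The other calls among these markers were ADARB2 (log2 fold change 0.94), at 13.0, 13.2, 9.36 and 9.56 CPM against 11.9, 9.57, 9.15 and 6.43 CPM, SLC4A4 (log2 fold change -0.50), ST18 (log2 fold change -1.15) and CSF1R (log2 fold change -1.20), and SLC4A4 had a log2 fold change of 0.03 after thinning. With DESeq2 SLC4A4 and CSF1R no longer passed (adjusted p = 0.0508 and 0.166).

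The nuclei of IT_A_1, thinned to 3000 UMIs, were also labelled from the other animal with IT_A_1 left out of training. Each nucleus then had to fall to 1 of the other 4 types, so the method itself divides them. The nearest type was IT_A_2 for 21.6% and 40.7% of them in animals 1 and 2, IT_A_3 for 29.1% and 45.7%, IT_A_4 for 25.6% and 7.71% and IT_A_5 for 23.6% and 5.90%. In animal 1 the 4 neighbours were taken up about evenly, and in animal 2 most nuclei fell to IT_A_2 and IT_A_3. Labels from either part of the genes matched for 58.3% and 60.2% of IT_A_1 nuclei, against 77.6% and 78.6% of the nuclei of the other types. This division was added after the data had been seen, carries no test and does not show that IT_A_1 holds separate groups.

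Levels were then read from genes that took no part in the labelling. RORB was at 149 and 259 CPM in animals 1 and 2 in IT_A_1 nuclei nearest IT_A_2 and at 42.3 and 18.6 CPM in those nearest IT_A_3, while the nuclei of IT_A_2 and IT_A_3 themselves held 189.7 and 215 CPM and 13.8 and 24.1 CPM. OTOF ran the other way, at 9.01 and 7.12 CPM nearest IT_A_2 and 48.3 and 79.1 CPM nearest IT_A_3. ADGRG2 was highest in nuclei nearest IT_A_5, at 284 and 289 CPM, and lowest in those nearest IT_A_4, at 62.3 and 44.5 CPM. For ADGRG2 the groups of IT_A_1 nuclei stood in the order of their nearest types in both animals, and for RORB in animal 1 and OTOF in animal 2. In animal 2 RORB was higher in nuclei nearest IT_A_5 (28.2 CPM) than in those nearest IT_A_3 (18.6 CPM), whereas IT_A_5 itself (11.1 CPM) was below IT_A_3 (24.1 CPM). In animal 1 OTOF was at 54.7 CPM nearest IT_A_5 and 48.3 CPM nearest IT_A_3, against 22.2 and 59.5 CPM in these types, and at 2.79 CPM nearest IT_A_4 and 9.01 CPM nearest IT_A_2, against 6.63 and 5.56 CPM. BAIAP3 in animal 1 was highest in nuclei nearest IT_A_4, at 158 CPM, although IT_A_4 itself was the lowest type, at 19.0 CPM. PDGFD in animal 2 was at 172 CPM nearest IT_A_4 and 87.8 CPM nearest IT_A_3, against 27.4 and 65.3 CPM in these types. RXRG, high in IT_A_2 at 82.2 and 94.5 CPM, was at 46.6 and 21.1 CPM in nuclei nearest IT_A_2 and at 4.69 and 7.32 CPM in those nearest IT_A_3. PLCXD3 and KYNU, chosen as genes that IT_A_1 nearly lacks, stayed low in the matching group. PLCXD3 was at 6.78 and 10.1 CPM in IT_A_1 nuclei nearest IT_A_4 against 171 and 218 CPM in IT_A_4, and KYNU at 1.40 and 0 CPM in those nearest IT_A_5 against 71.4 and 49.2 CPM in IT_A_5. MPPE1, low in IT_A_1 as a whole, was low in every group of its nuclei, at 15.02 to 40.5 CPM, against 80.1 to 194 CPM in the 4 types.

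**Figure D4:**
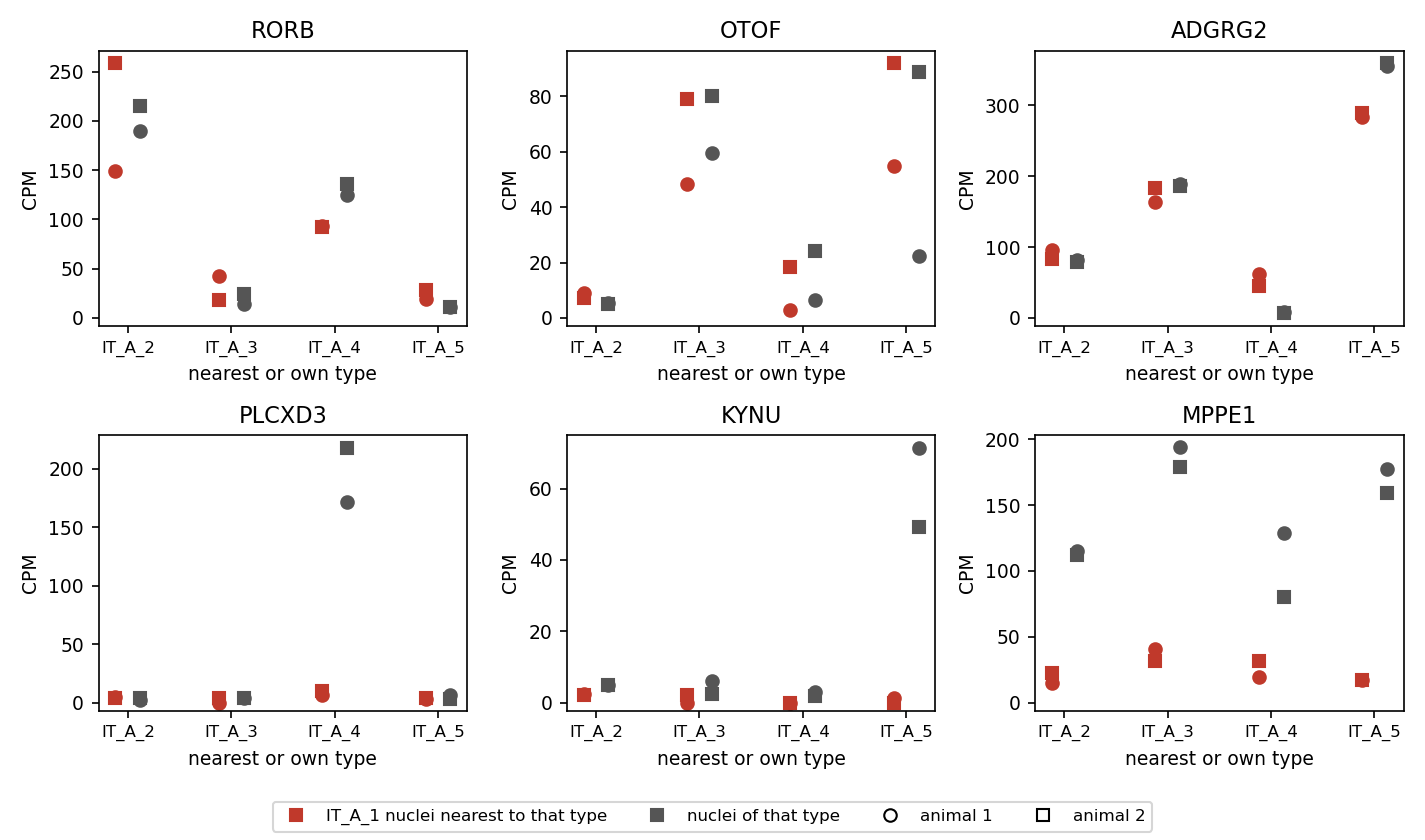
CPM of 6 genes in IT_A_1 nuclei grouped by the nearest of IT_A_2 to IT_A_5 (red) and in the nuclei of that type (gray), thinned to 3000 UMIs, for animal 1 (circles) and animal 2 (squares). Nuclei were grouped with genes other than the one shown. RORB is high in red near IT_A_2 and low near IT_A_3, PLCXD3 and KYNU are at most 10.1 CPM in red, and MPPE1 is lower in red than in gray for all 4 types.

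Of the 1805 genes called lower, 1549 (85.8%) had their lowest level of the 5 types in IT_A_1 in both animals, and of the 1721 called higher 961 (55.8%) had their highest there. Over all 17 glutamatergic types the counts were 16 and 36. With the deposited labels, 7184 genes reached 20 CPM in at least 1 IT_A type of at least 1 animal. In both animals IT_A_1 was the lowest type for 14.3% and the highest for 14.2% of them. A gap of at least 2-fold to the next type left 139 genes with IT_A_1 lowest and 0 with IT_A_1 highest. The same counts were 18 and 24 for IT_A_2, 3 and 3 for IT_A_3, 32 and 51 for IT_A_4 and 71 and 33 for IT_A_5. Among the 5 types, IT_A_1 therefore had the most genes that it alone held at a low level, and it had no gene of this kind at a high level.

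Of these 139 genes, 131 were also called lower in the held-out fit, and 15 had a symbol: TMEM204, LIPT1, BCO1, MPPE1, BTBD6, FZD8 and FLT1, described above, and NUDT13, MAEL, FANCC, IKZF1, SVOPL, PROS1, CHST7 and VN2R603. SVOPL, a transporter-like protein, was at 2.34, 3.31, 2.76 and 2.68 CPM in IT_A_1 against 17.5, 21.4, 15.1 and 11.47 CPM, MAEL, a factor of transposon silencing, at 5.67, 5.38, 6.21 and 6.35 CPM against 29.7, 26.6, 22.1 and 17.4 CPM, and NUDT13, a Nudix hydrolase, at 4.67, 4.55, 5.52 and 4.90 CPM against 18.9, 17.4, 14.4 and 12.9 CPM. FANCC, a member of the Fanconi anemia complex, was at 15.3, 19.4, 12.6 and 10.6 CPM against 79.7, 78.5, 44.9 and 32.9 CPM and was not called in the held-out fit (adjusted p = 0.0621). The symbols name no single function. Summed, the 139 genes were at 1687, 1708, 2105 and 1984 CPM in IT_A_1, and between 4791 and 12837 CPM in the libraries of the other IT_A types. The ratio to the mean of the others was 0.162 in animal 1 and 0.251 in animal 2, and 0.105 and 0.131 among nuclei of 5000 to 10000 UMIs alone. The set was chosen on these values, so they describe it and test nothing.

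The same 139 genes were low in other types, in nuclei that played no part in choosing them. Of 27 neuronal types in the 8 subclasses with several types, 6 held less than 0.5 of the summed level of the other types of their subclass in both animals: IT_A_1, IT_C_1 (ratio 0.202 and 0.151 in animals 1 and 2), L5PT_2 (0.188 and 0.168), L6CT_2 (0.237 and 0.193), Pvalb_2 (0.184 and 0.200) and Sst_2 (0.210 and 0.178). Each is 1 type of a different subclass, and Pvalb_2 and Sst_2 are GABAergic interneurons. Of the 139 genes, 138 were lower in IT_C_1 than in IT_C_2 in both animals, 135 in L5PT_2 against L5PT_1, and 134, 133 and 126 in L6CT_2, Pvalb_2 and Sst_2 against the mean of the other types of their subclass. Of all genes tested, 38.9% were lower in both animals in the comparison of IT_C_1, and 39.3%, 38.8%, 38.1% and 35.7% in those of L5PT_2, L6CT_2, Pvalb_2 and Sst_2. The genes called in the fit were read in the same way. Of those called lower in IT_A_1, 84.7% were lower in IT_C_1 in both animals, and 74.3%, 81.8%, 77.6% and 63.5% in L5PT_2, L6CT_2, Pvalb_2 and Sst_2. Of those called higher, 82.9% were higher in IT_C_1 (of all genes tested 31.1%), and 76.5%, 79.3%, 73.9% and 66.0% in the other 4 types in this order (of all genes tested 27.2%, 29.1%, 28.9% and 25.3%). The shares were largest in IT_C_1 and smallest in Sst_2 for both sets.

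Depth and animal moved with this pattern. In the 6 types the median UMIs per nucleus were 0.226 to 0.474 of those of the other types of the subclass in animal 1 and 0.381 to 0.935 in animal 2, and IT_A_1 had the highest of these ratios in both. All 6 took a larger share of their subclass in animal 2, by 1.94 to 3.50 times, as did 4 of the other 21 types. Among nuclei of at least 3000 UMIs the 6 summed ratios ran from 0.155 to 0.293, and without nuclei called doublets from 0.142 to 0.249. Among nuclei of 5000 to 10000 UMIs, Sst_2 kept 1 and 15 nuclei, with ratios of 0.586 and 0.287. For IT_A_1 itself these bands describe nuclei on which the genes were chosen. The part of depth and of the animal in this pattern was not tested.

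**Figure D5:**
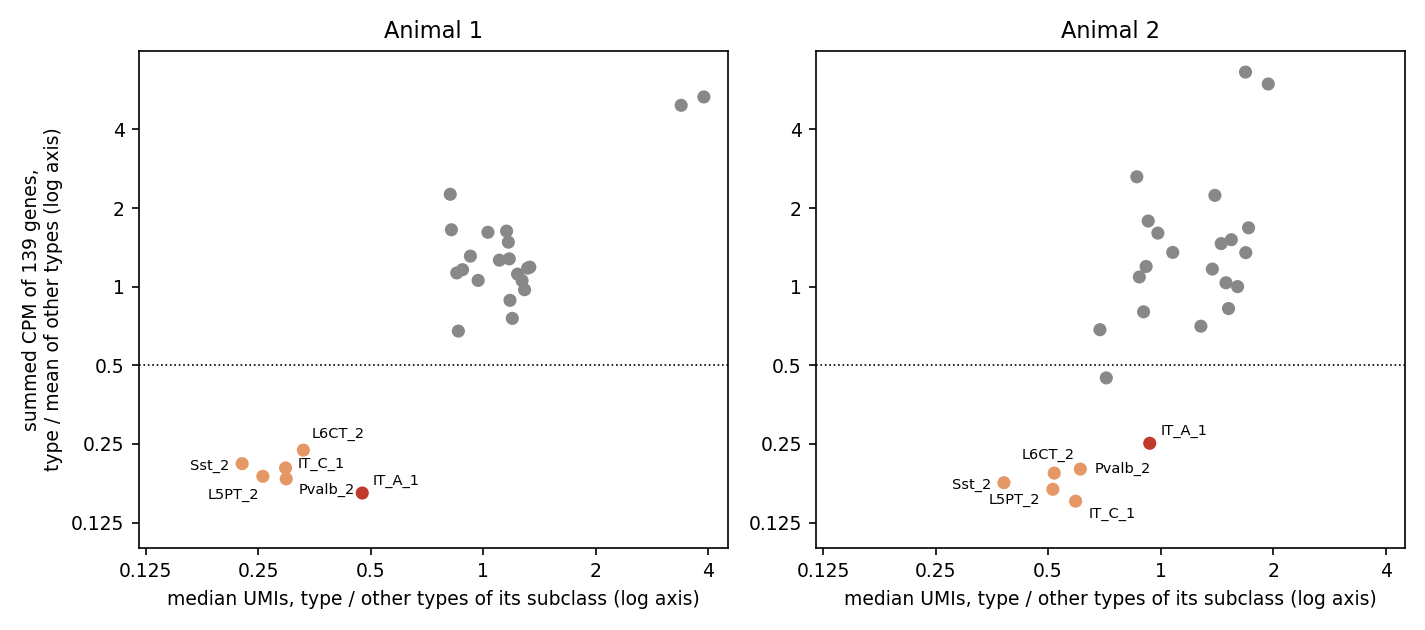
Summed CPM of the 139 genes lowest in IT_A_1, relative to the mean of the other types of the same subclass, against the ratio of median UMIs per nucleus, for 27 neuronal types in each animal (both axes logarithmic). IT_A_1 (red) and 5 types of other subclasses (orange) lie below the dotted line at 0.5 in both animals, and IT_A_1 has the highest depth ratio of the 6 in each animal.

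Within IT_A_1, the animals were compared gene by gene. Of 6160 genes at 20 CPM or more in the higher animal, 88 (1.43%) differed by at least 2-fold with no overlap between libraries, 28 higher in animal 2 (0.455%) and 60 higher in animal 1 (0.974%). The counts were 59, 67, 115 and 50 for IT_A_2 to IT_A_5. NDC80, a kinetochore protein, was at 0.667, 1.65, 22.2 and 22.3 CPM in libraries 1A to 2B, and it was also low in animal 1 in the other types, with at most 1.28 CPM. HOMER1, a postsynaptic scaffold protein whose short form is induced by activity, was at 667, 641, 1899 and 1849 CPM, or 2.85-fold higher in animal 2, and it passed the same rule in 3 of the other 4 types. OLFM3, a secreted olfactomedin protein, was at 18.4, 22.3, 47.8 and 52.6 CPM. In the other direction KLHL1, a protein of the kelch-like family, was at 18.4, 22.8, 2.46 and 3.90 CPM, CACHD1, a calcium channel subunit relative, at 26.0, 25.2, 5.81 and 4.51 CPM, and SIN3A, a scaffold of histone deacetylase complexes, at 115, 132, 26.5 and 28.5 CPM, the last in all 5 types. Of the 60 genes higher in animal 1, 34 passed in IT_A_1 alone among the 5 types, and of the 28 higher in animal 2, 12 did. The direction was more widely shared: 53 of the 60 and 23 of the 28 had the same sign in all 4 other types, so a gene that passed in IT_A_1 alone, such as NDC80, could differ the same way in the others. The types of an animal came from the same libraries, and no share of same signs over all genes is given beside these counts. With 1 animal on each side, these differences have no replicate check, and animal, age and experimenter cannot be told apart.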

How the data were processed

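Single-nucleus transcriptomic libraries were made from V1 of 2 opossums with 10x 3' chemistry, 2 per animal. Per the labels the authors aligned reads with Cell Ranger 6.1.1 (the matrix header names 7.1.0), introns included, to ASM229v1 with Ensembl annotation whose 3′ ends were extended by up to 5 kb, and deposited raw UMI counts per gene and nucleus. They filtered nuclei on genes and UMIs, and their deposited metadata hold the subclass and type of each nucleus and a Scrublet doublet score, a fraction from 0 to 1 computed by the authors, with its call. Nuclei without a type were left out, and 0 columns could not be mapped. A symbol was given for 11590 of 30800 genes (37.6%).

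For tests, genes were divided at random into 2 parts. Nuclei were labelled from 1 part by 15 nearest neighbours in 30 principal components of 2000 variable genes, trained on at most 500 nuclei per type of the other animal, and the counts of the other part were summed by label and animal (10 sums). edgeR 4.0.16 (R 4.3.3; TMM, filterByExpr, quasi-likelihood test, Benjamini-Hochberg threshold 0.05) was the main test. CPM with deposited labels are descriptive. Named genes needed an adjusted p under 0.05, a symbol, 1 direction in both animals and 20 CPM in both animals, and those with the largest log2 fold changes, 12 per direction, were taken, with up to 4 members per list (others are mentioned by their call alone), 3 per direction and pair, and 5 per direction between animals. SLIT2, ROBO1 and the other list members given in ranges, FOS, and the 15 genes with a symbol among the 139 were chosen after their values were seen. The members, lists and rules were chosen with earlier results of these data known. The same animal gave all 5 sums of a number, and deviations of sums of the same animal correlated at 0.199 to 0.435 (median 0.341; 17001 genes, 10 pairs). p-values measure the spread between 2 animals. Scripts were tested on simulated data. Alternatives were DESeq2 1.42.0, other scaling, filters, labels, depths and sums, and 4 fits, the nearest-type labels and the checks of the 139 genes were added after seeing the data. Python 3.11.15, numpy 2.4.6, pandas 2.3.3, scipy 1.17.1 and matplotlib 3.10.9 were used. Sequences are not used here, and some genes are not reported here.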

Additional observations from a re-analysis of the deposited data

How the results depend on the processing

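Against the mean of the other types, the 3526 calls became 6878 with the animal as a replicate block, 2291 with equal nuclei per type and animal, 1877 with nuclei centred on the means of their animal before labelling, 1033 with the other types added up (317 higher and 716 lower) and 1498 with these sums and DESeq2. They stayed within 1.5 times with RLE size factors (3554), DESeq2 (2458), no filter (4087), deposited labels (4129), doublets removed (3518), thinning (2463), thinning with the block (4471) and nuclei of 5000 to 10000 UMIs thinned to 5000 (2780 of 12373 genes tested). Against IT_A_2, the 2516 calls became 6089 with the block, 1597 with equal nuclei, 1089 with centring and 3912 with thinning and the block. For IT_A_3 the 3314 became 6835, 2169 and 1777 with the block, equal nuclei and centring, and 2167 with DESeq2. For IT_A_4 the 1704 became 2571 without the filter, 5136 with the block, 909 with centring and 2690 with thinning and the block. For IT_A_5 the 3558 became 6599 with the block and 2192 with centring. The cause of these shifts was not tested. Except with the other types added up (6 of 12 and 3 of 12 lost, or 4 and 1 with DESeq2), with centring (1 and 5) and with equal nuclei (0 and 1), the 12 raised and 12 reduced genes all kept their calls, and none changed direction. With the other types added up, by edgeR and by DESeq2, RORB turned to -0.20 and -0.18, CACNA1H to -0.45 and -0.44 and GRM4 to -0.44 and -0.42 on the log2 scale. SLC4A4 turned to 0.034 with thinning and 0.092 with thinning and the block. Leaving out 1 animal gave a share of IT_A of 22.8 to 44.3%, a depth ratio of 0.474 to 0.935, a recovered share of 72.0 to 93.1% and a correlation with IT_A_3 of 0.895 to 0.935, and no gene test, since no residual degrees of freedom remained. The correlation with IT_A_3 was 0.858 after thinning. With a minimum of 10 CPM, 161 genes differed between animals in place of 88. Animal 1 gave 981 IT_A_1 nuclei at a median of 4049 UMIs, which limits the precision of genes at few CPM.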
